A study of Mus musculus with 11 samples.

Results

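Genes of retinoic acid metabolism, transport and response were followed through the astrocyte transcriptomes of 4 mouse brain regions: Cyp26b1, Aldh1a1, Aldh1a2, Aldh1a3, Rdh10, Dhrs3, Crabp1, Stra6 and Rarb. They are 9 of the 24421 gene entries measured in each sample. The genes were taken by name for their roles in the pathway, and the set was selected on the high brainstem level of Cyp26b1, so brainstem levels of the set are given below as a description without a test. The samples were astrocytes sorted by FACS for green fluorescence from 16-week-old C57BL/6 mice that carry the Aldh1l1-eGFP transgene, in which regulatory sequence of Aldh1l1, a gene of folate metabolism expressed in astrocytes, drives eGFP. There were 3 samples of olfactory bulb (OB), 3 of hippocampus (HC), 2 of cortex (CX) and 3 of brainstem (BS), all untreated and all carrying the transgene. Whether a sample held cells of a single mouse or of pooled mice is not given in the sources used here, so the p-values below measure the spread between these samples, which may in part be technical.

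Retinoic acid is made from vitamin A in steps. Retinol enters cells through the receptor STRA6, is oxidized to retinaldehyde by RDH10, an oxidation that DHRS3 reverses, and is then oxidized to retinoic acid by the retinaldehyde dehydrogenases of the ALDH1A family. CRABP1 binds retinoic acid in the cytoplasm, CYP26 enzymes such as CYP26B1 break it down, and nuclear receptors such as RARB carry its signal to genes. In the developing hindbrain, retinoic acid patterns the segments that give rise to the brainstem, and its synthesis and breakdown are kept in separate territories.

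Values are the normalized reads of each gene, that is read counts divided by a size factor per sample. Between 2830746 and 14151670 reads fell on genes per sample, with a median of 5552215, and a single read was worth a value between 0.367 and 2.10, depending on depth. The floor used for detection, 3 reads, corresponded to values from 1.10 to 6.31, and the shallowest samples were BS replicates 2 and 3. Ribosomal Rn45s reads made up 0.966 to 2.93% of the reads in the OB and HC and 18.0 to 25.6% in the CX and BS, so that this share and these regions cannot be told apart. All 10 astrocyte markers were found with at least 3 reads in every sample, and their summed value lay between 106147 and 679319. Choroid plexus markers were abundant in the HC and BS. Without Ttr, the sum of 13 of them was 7676 to 16686 in HC and 6771 to 28624 in BS samples, compared with 515 to 1018 for the CX and 215 to 324 for the OB, where Folr1 and Slc4a5 were at 0 in all 3 samples.

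Promoter sequences of RefSeq (GRCm38.p6) were matched to 7 of the 9 genes, in 13 windows that run from 250 bases before a transcription start to 50 bases after it. Aldh1a3 and Rdh10 had no entry. The stretches shown are the promoters of Cyp26b1 and Aldh1a1, whose levels moved furthest in the BS, and the repeat in Rarb, the receptor gene that retinoic acid is known to induce. Retinoic acid receptors bind pairs of a half-site that reads AGGTCA, with the close variants AGTTCA and, with another first base, GGGTCA or else GGTTCA, and these were searched on both strands, singly and as direct repeats. In the lines below, capitals mark a single half-site in Aldh1a1 and the whole repeat, half-sites and spacer, in Rarb, and each sequence is written 5′ to 3′ on the strand of the gene.
Cyp26b1, chr6:84593909-84594060, minus strand: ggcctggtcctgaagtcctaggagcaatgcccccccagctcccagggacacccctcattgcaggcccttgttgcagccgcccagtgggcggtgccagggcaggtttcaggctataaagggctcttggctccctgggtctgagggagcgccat
Aldh1a1, chr19:20601718-20601960, plus strand: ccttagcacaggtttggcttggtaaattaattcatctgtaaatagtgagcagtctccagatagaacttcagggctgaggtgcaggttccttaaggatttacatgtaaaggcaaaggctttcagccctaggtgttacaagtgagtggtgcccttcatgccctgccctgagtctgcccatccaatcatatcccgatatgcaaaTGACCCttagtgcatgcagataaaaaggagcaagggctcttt
Rarb, chr14:16575506-16575535, minus strand: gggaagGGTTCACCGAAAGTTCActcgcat

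The Cyp26b1 and Aldh1a1 stretches lie outside the exons of their own gene in GENCODE. The Aldh1a1 stretch falls within the span of the gene, which runs from 20492715 to 20643465 on chromosome 19, before a start used by its shorter transcripts. The Rarb stretch lies in the first exon of the principal GENCODE transcript, in its 5′ UTR. A direct repeat with a spacing of 5 bases occurred in 1 of the 13 windows, that of Rarb, 53 to 37 bases before the RefSeq start, and in 0.0974% of all 32851 RefSeq windows. Repeats with a spacing of 1 or 2 bases occurred in none of the 13 windows and in 0.222% and 0.268% of all windows. The half-site of Aldh1a1 reads on the other strand and lies 49 to 44 bases before the start. Single half-sites are common, with at least 1 in 43.7% of all windows, and none was found in the window of Cyp26b1. A match describes the letters alone.

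Cyp26b1, the retinoic acid hydroxylase, had the widest range of the set. Its values in the BS were 437, 1316 and 783. They were 97.4, 11.9 and 18.7 in the HC, 3.77 and 9.20 in CX samples, and 0, 0 and 2.15 in the OB. The OB value rests on 4 reads in all 3 samples together and the CX values on 3 and 6 reads, against 372 to 657 reads in each BS sample. The order of the CX and OB therefore rests on values at or near the floor of 3 reads. The region means fell in the order BS at 846 ± 443 (SD, n = 3), HC at 42.7 ± 47.6 (SD, n = 3), CX at 6.48 ± 3.84 (SD, n = 2) and OB at 0.718 ± 1.24 (SD, n = 3), and no neighbours in this order overlapped. The lowest BS sample lay 4.49-fold above the highest sample of any other region. On the log2(value + 1) scale the BS exceeded the pooled other regions by 6.85 ± 1.14 (SE), and the OB lay below its pooled others by 5.57 ± 1.56 (SE), both given without a test because of how the gene was chosen. The gene spans 84571414 to 84593908 on the minus strand of chromosome 6 (GRCm38).

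Pairs of regions that leave out the BS could be tested, although their spread was estimated over the samples of all regions, the BS included. Here and below a gene was called where the unadjusted limma p was under 0.01, the fold change exceeded 1.5 and 2 or more replicates of a region had values above 5, and adjusted p-values follow Benjamini and Hochberg over the 13875 genes tested. Cyp26b1 was lower in the OB than in the HC, with a log2 fold change of -4.32 ± 0.76 (SE) and an adjusted p of 0.00206 in limma. It was called in this pair under every alternative setting and with each sample left out. The HC-to-CX difference of 2.07 ± 0.85 (SE), with an adjusted p of 0.322, and the OB-to-CX difference of -2.25 ± 0.85 (SE), with an adjusted p of 0.172, were not called. The first was called without HC replicate 2, at 2.66 ± 0.88 (SE), and the second with a pseudocount of 0.25 and without OB replicate 3, at -2.80 ± 0.87 (SE), or HC replicate 1, at -2.25 ± 0.73 (SE). Of the other CYP26 genes, Cyp26a1 had no read in any sample, and Cyp26c1 was found in 1 HC sample at a value of 2.499. In bulk samples a lower level in each cell cannot be told apart from fewer cells that express the gene.

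**Figure D1:**
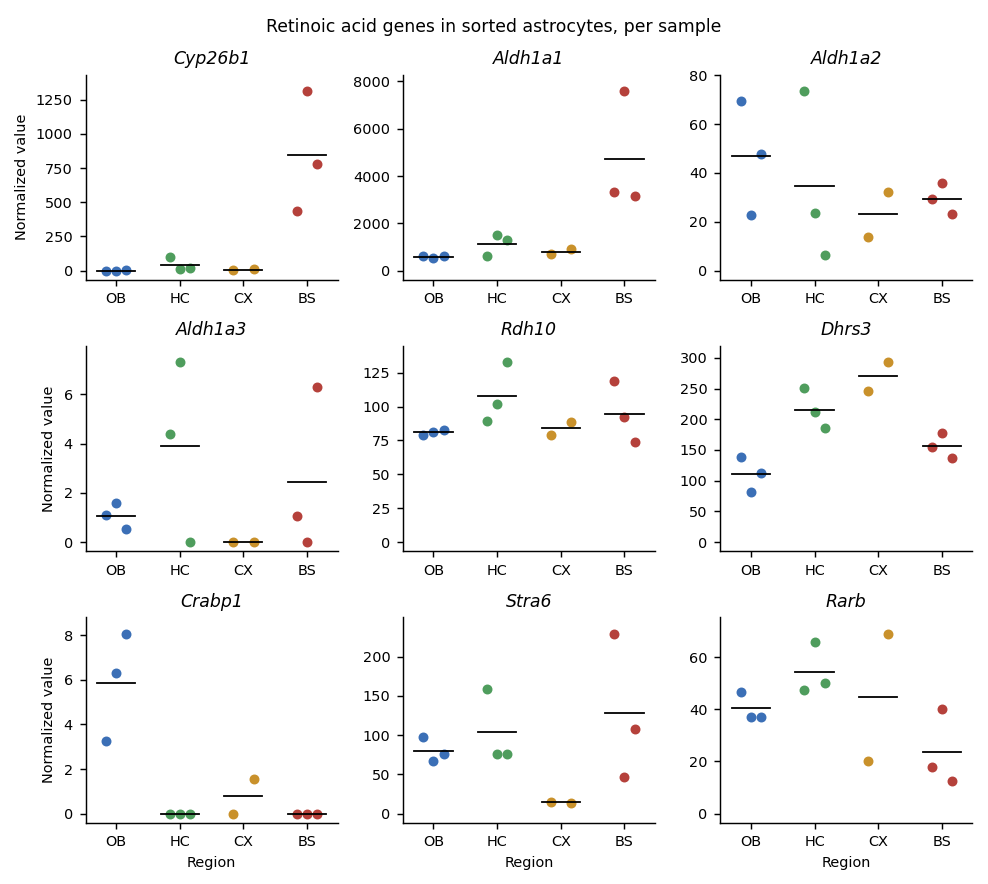
Normalized values (y axis, linear) of the 9 retinoic acid genes in each of the 11 samples, by region (x axis); points are samples and horizontal lines are region means. Cyp26b1 and Aldh1a1 stand above all other samples in the 3 BS samples, Stra6 is lowest in both CX samples, and Crabp1 has 3 reads or more in the OB alone.

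Aldh1a1, which oxidizes retinaldehyde to retinoic acid, had the highest mean of the set per exon length in every region. Its normalized values reached 3346, 7609 and 3155 in the BS, 629, 1493 and 1297 in the HC, 704 and 906 in CX samples, and 602, 553 and 617 in the OB. All BS samples lay above all others, the lowest by 2.11-fold over the highest HC sample, and the HC and CX overlapped. The BS mean of 4703 ± 2518 (SD, n = 3) was 4.13-fold that of the HC, and the log2 difference of the BS from the pooled other regions was 2.44 ± 0.33 (SE), as a description. The OB had the lowest mean, 591 ± 33.7 (SD, n = 3), and all OB samples lay below all others. Yet against the pooled others its log2 fold change of -1.51 ± 0.61 (SE) had an adjusted p of 0.209 and was not called, nor was the OB-to-HC difference of -0.86 ± 0.33 (SE), with an adjusted p of 0.155. The last was called with DESeq2, with the replicate block, and without HC replicate 1, at -1.24 ± 0.30 (SE), or BS replicate 2, at -0.86 ± 0.25 (SE). Against the pooled others the OB was called with DESeq2, at -2.02, and with a mean for each region, at -1.39.

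Oligodendrocyte markers were also highest in the BS, but their highest BS sample was not that of Cyp26b1 and Aldh1a1. The summed value of the 10 oligodendrocyte markers was 52522 to 90420 in the BS and 9752 to 40097 in the other regions. Within the BS, Cyp26b1 and Aldh1a1 were both highest in BS replicate 2, 3.01-fold and 2.27-fold over replicate 1. That sample had the lowest choroid plexus sum of the BS, 6771 without Ttr against 28624 and 13355 in the others, the highest astrocyte sum, 302764, and an oligodendrocyte sum between those of the other BS samples. The part of these cell types in the BS levels was not tested.

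The related dehydrogenases were lower and did not share the BS level of Aldh1a1. Aldh1a2, on chromosome 9 from 71215789 to 71296243 and known in the brain chiefly from the meninges, measured 69.5, 22.9 and 47.9 in the OB, 73.7, 23.7 and 6.24 in the HC, 13.8 and 32.2 in CX samples, and 29.4, 36.1 and 23.2 in the BS. The regions overlapped throughout, and no tested difference was called. Aldh1a3, on chromosome 7 from 66390890 to 66427517, was close to the floor. It had between 0 and 8 reads per sample and none in the CX, too few to pass the filter, and exact permutation tests gave p = 0.861 for the OB, 0.267 for the HC and 0.164 for the CX against the other regions. Per kilobase of exon, the mean value of Aldh1a1 was 953 in the BS, 231 in the HC, 163 for the CX and 119.6 for the OB, while that of Aldh1a2 was 13.1, 15.3, 10.2 and 20.7 in the same order. Aldh1a1 made up 98.1 to 99.0% of the 3 enzymes per exon length of BS samples, 92.8 to 95.9% of CX, 79.2 to 99.0% of HC and 79.8 to 91.5% of OB samples.

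**Figure D2:**
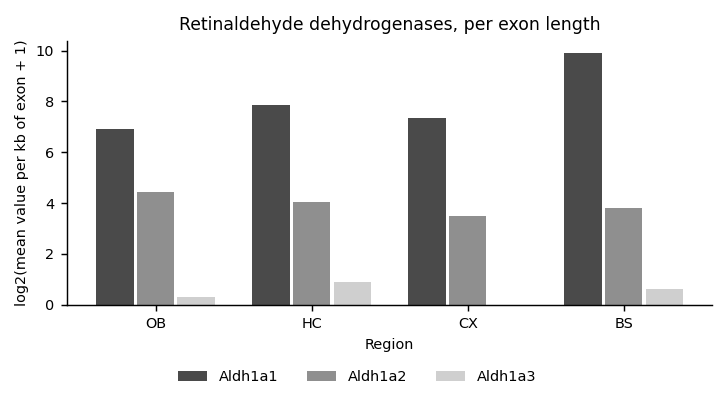
Region means of Aldh1a1, Aldh1a2 and Aldh1a3 per kilobase of exon, as log2(mean + 1) on the y axis, by region on the x axis; bars are region means of 2 or 3 samples. Aldh1a1 is the tallest bar in each region and tallest in the BS, and Aldh1a3 has no read in the CX.

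Aldh1a7 is a mouse gene closely related to Aldh1a1, and the longest reading frames of the pair matched at 91.6% of aligned bases, against 67.2% for Aldh1a2 and 66.8% for Aldh1a3. Reads that fit both genes could have been split between them or lost, so both values are uncertain to that extent. Their regional patterns ran apart. Aldh1a7 was 47.8, 51.3 and 35.6 in the OB, 15.6, 0.913 and 6.97 in the HC, 26.4 and 16.9 in CX samples, and 3.15, 4.01 and 2.10 in the BS. All OB samples exceeded all others, and the ratio of the mean of Aldh1a1 to that of Aldh1a7 went from 13.2 in the OB to 1523 in the BS. Aldh1a7 was called higher in the OB against the pooled others, with a log2 fold change of 2.64 ± 0.77 (SE) and an adjusted p of 0.0716, a call lost without any 1 of the 3 OB samples, where the fold change was 2.53 to 2.79. Against the HC alone the difference was 2.84 ± 0.75 (SE), with an adjusted p of 0.0308, and without HC replicate 2 it was 1.98 ± 0.67 (SE) and not called.

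The step between retinol and retinaldehyde is run by Rdh10 and Dhrs3 in opposite directions. Rdh10, which makes retinaldehyde and lies on chromosome 1 from 16105774 to 16133734, measured 79.3, 81.3 and 82.4 in the OB, 89.3, 102 and 133 in the HC, 79.1 and 88.9 in CX samples, and 119, 92.2 and 73.7 in the BS. Its region means spanned 1.34-fold, and no tested difference was called. Dhrs3 turns retinaldehyde back to retinol, is itself induced by retinoic acid and lies on chromosome 4 from 144892827 to 144928209. Its values were 139, 82.1 and 113 in the OB, 250.5, 212 and 185 in the HC, 246 and 293 in CX samples, and 156, 178 and 137 in the BS. All OB samples lay below all HC and CX samples and overlapped with the BS. Dhrs3 was lower in the OB than in the HC by a log2 fold change of -0.97 ± 0.24 (SE), with an adjusted p of 0.0214, and lower than in the CX by -1.29 ± 0.27 (SE), with an adjusted p of 0.0106. Both calls held under every alternative setting and with each sample left out. Against the pooled others the OB difference was -0.88 ± 0.25 (SE), with an adjusted p of 0.0609, a call lost without OB replicate 2, at -0.68 ± 0.28 (SE), or replicate 3, at -0.91 ± 0.30 (SE). The HC and CX, which overlapped, had a difference of -0.33 ± 0.27 (SE), with an adjusted p of 0.690.

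Crabp1, which encodes the cytoplasmic binding protein and lies on chromosome 9 from 54764748 to 54773110, was detected almost entirely in the OB. Its OB values of 3.26, 6.32 and 8.08 rest on 3, 8 and 15 reads. One CX sample had a single read, and the other 7 samples had none. In total 26 reads in the OB stood against 1 in the other 8 samples, a depth-corrected ratio of 56.5 with a 95% interval of 9.29 to 2318 (exact, counting error only). Against the HC alone, at 0 reads, the OB mean of 5.88 ± 2.44 (SD, n = 3) was at least 10.6-fold higher, and against the BS, also at 0 reads, at least 3.78-fold higher, with the floor of 3 reads taken over each region. Crabp1 was too low for the filter. The OB exceeded the other regions in an exact permutation test (two-sided p = 0.00606, the smallest that 165 splits can give), whereas p was 0.321 for the HC and 0.873 for the CX. Of the 6 markers of olfactory ensheathing glia, a cell type of the OB, Frzb, Npy, Mybpc1 and Ngfr were higher in all OB samples than in all others, while Prss56 overlapped with a CX sample and Matn2 with the HC and BS. The summed value of the 6 was 1787 to 2325 in the OB and 64.1 to 319 elsewhere. Within the OB it was highest in replicate 1, where Crabp1 was lowest. Among the 10 neuron markers, Gad1 was 301 to 473 in the OB and 14.6 to 67.3 elsewhere. The sum of the 10 overlapped between the OB and the other regions. The part of ensheathing glia and neurons in the result was not tested. Crabp2, the related binding protein, ranged from 0 to 17.5 across the 11 samples, was at 0 in 5 of them and was called in no region.

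Stra6, on chromosome 9 from 58063788 to 58153996, encodes the cell surface receptor for retinol bound to its plasma carrier and was low in the CX. It measured 15.1 and 13.8 there, 97.7, 66.3 and 76.5 in the OB, 159, 75.8 and 75.6 in the HC, and 229, 46.1 and 107 in the BS. Both CX samples lay below all others, while the other 3 regions overlapped. The OB exceeded the CX by a log2 fold change of 2.38 ± 0.55 (SE), with an adjusted p of 0.0194, and the HC exceeded it by 2.67 ± 0.55 (SE), with an adjusted p of 0.0282, and both pairs were called under every alternative and with each sample left out. Against the pooled others the CX difference was -2.61 ± 0.47 (SE), with an adjusted p of 0.101, and was called at the unadjusted threshold, under every alternative that keeps that threshold and with each sample left out.

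Stra6 moved with the choroid plexus markers in the BS and only in part in the HC. Between the OB and CX it went the other way. In the BS, Stra6 was highest in replicate 1 and lowest in replicate 2, as was the summed choroid plexus level. In the HC both were highest in replicate 1. HC replicates 2 and 3 had nearly the same Stra6, 75.8 and 75.6, with sums without Ttr of 7676 and 14434. In the OB, Stra6 stood at 66.3 to 97.7 with a choroid plexus sum of 215 to 324, which is below the sum of 515 to 1018 in the CX, where Stra6 was lowest. Most of the OB sum was Aqp1, at 135 to 209, a marker that was 2.51 and 6.13 in the CX, against the order of the sums. Meningeal fibroblast markers summed to 699 to 955 in OB samples, 584 to 776 in CX and 1879 to 9459 in HC and BS samples. Igf2 alone made up most of each HC or BS sum, at 1170 to 6095. Its values were 200 to 251 for OB and 354 to 381 for CX samples. The order of these sums therefore rests largely on this marker and is not shown for the others. The part of choroid plexus, meningeal and ensheathing cells in the Stra6 levels was not tested.

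**Figure D3:**
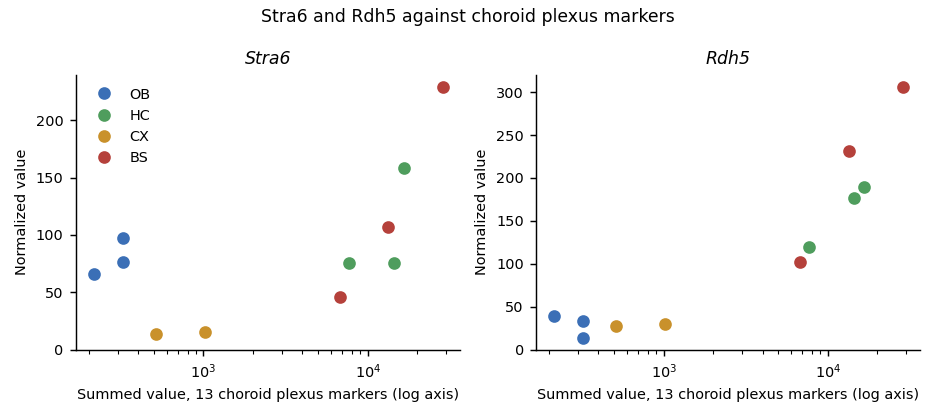
Normalized values of Stra6 and Rdh5 (y axes, linear) against the summed value of 13 choroid plexus markers without Ttr (x axes, log scale), with a point for each of the 11 samples, coloured by region. The BS samples rise from left to right in both panels, and the OB samples lie at 66.3 to 97.7 for Stra6 at the lowest marker sums, above the CX samples.

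Rarb, the receptor gene with the repeat shown above, had its lowest mean in the BS, where the means of Cyp26b1 and Aldh1a1 were highest. It lies on chromosome 14 from 16430839 to 16819156. Its values were 17.9, 40.1 and 12.6 in the BS, 46.7, 37.1 and 37.2 in the OB, 47.5, 65.8 and 49.9 in the HC, and 20.1 and 69.0 in the CX. Within the BS the order was not inverse. Rarb was highest in BS replicate 2, on 20 reads, and so were Cyp26b1 and Aldh1a1. Neighbouring regions overlapped, and the BS had the lowest mean, 23.5 ± 14.6 (SD, n = 3), a log2 difference of -1.04 ± 0.43 (SE) from the pooled others, as a description. That difference was -1.49 without BS replicate 2 and -1.19 without CX replicate 1. No tested difference was called, the largest being 0.78 ± 0.47 (SE) for the HC against the pooled others, with an adjusted p of 0.915. Of the 5265 exon bases of Rarb, 2020 overlap Top2b or Gm48162 on the opposite strand. Whether reads were counted by strand is not given in the sources used here. Reads in the overlapped bases therefore cannot be told apart between Rarb and these genes.

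Counted over the set, 7 of the 9 genes passed the filter on low values, all but Aldh1a3 and Crabp1. In the OB against the pooled others 1 of the 6 tested members without Cyp26b1 was called, Dhrs3, lower, where 8.04% of all genes were called. No member was called in the HC by limma, edgeR or DESeq2, where limma called 1.28% of all genes, and of the 6 tested members without Cyp26b1, 0 had an unadjusted p under 0.05 there. For the CX 1 was called, Stra6, lower, where 2.77% of all genes were called. In the BS 2 were called, Cyp26b1 and Aldh1a1, both higher, where 9.03% of all genes were called, and nothing is read from this count because it was the comparison behind the choice. Between pairs of regions, 2 were called for the OB against the HC (9.92% of all genes), 2 for the OB against the CX (8.07%) and 1 for the HC against the CX (4.69%).

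**Figure D4:**
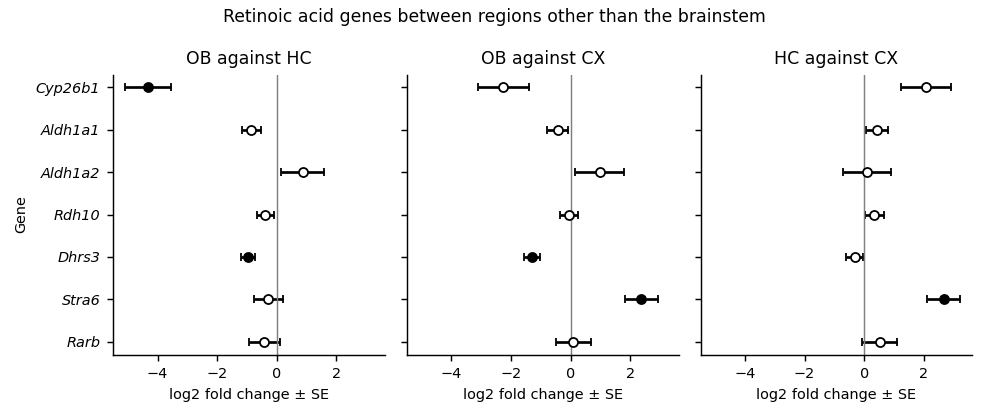
Log2 fold changes with standard errors (x axis) of the 7 tested members (y axis) in the 3 pairs of regions without the BS; filled points were called. Cyp26b1 and Dhrs3 are lower in the OB than in the HC, Dhrs3 is lower and Stra6 higher in the OB than in the CX, and Stra6 is higher in the HC than in the CX.

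A wider list of 44 retinoid genes was read in the same way, and 25 passed the filter. No read was found for 9 of them in any sample, among them Adh4, Adh7 and Bco1, and the other 10 were low. Against the pooled others, 3 of the 25 were called for the OB, 1 for the CX, 1 for the BS and 0 for the HC. Over all tested genes the shares called were 8.04%, 2.77%, 9.03% and 1.28% in the same order, so nothing is read from these counts. The HC count was also 0 with edgeR and DESeq2, and 3 where each region had its own mean. In limma, 2 of the 25 had an unadjusted p under 0.05 there. The median log2 fold change of the 25 was -0.01 for the OB, -0.14 for the HC, 0.39 for the CX and 0.02 for the BS, beside medians over all tested genes of 0.02, 0.02, -0.03 and 0.02.

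Among carriers and storage genes, Ttr, the plasma and choroid plexus carrier of thyroxine, differed most. It was 6.52, 16.6 and 5.39 in the OB, 4204 and 1323 in the CX, 65549 to 132046 in HC and 46376 to 221911 in BS samples. Ttr was lower in the OB by a log2 fold change of -12.05 ± 1.29 (SE), with an adjusted p of 0.000128, and it is also the best known choroid plexus marker. Rpe65, the retinoid isomerase of the retinal pigment epithelium, was 209 in both CX samples against 0 to 40.4 in all others. Its log2 fold change in the CX was 3.90 ± 1.05 (SE), with an adjusted p of 0.2497, a call lost with a pseudocount of 0.25 and without either CX sample, where it was 3.90 ± 1.49 (SE) both times.

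Among the retinol dehydrogenases, Rdh5 was called lower in the OB, at 33.7, 39.5 and 14.0, with a log2 fold change of -2.03 ± 0.67 (SE) and an adjusted p of 0.114, a call lost with the replicate block, and also lost without any 1 OB, HC or BS sample, where it was -1.59 to -2.31. It was 119.7 to 189 in HC and 102 to 306 in BS samples, but 30.2 and 27.6 in the CX, so that its high samples were those with high choroid plexus markers, whose part was not tested. The HC exceeded the CX by 2.42 ± 0.50 (SE), with an adjusted p of 0.0280. Of the receptors, Rara was 155 and 138 in both CX samples and 31.2 to 96.7 in all others, and its HC-to-CX difference of -1.45 ± 0.39 (SE) was called at an adjusted p of 0.0952 and lost without either CX sample, at -1.37 ± 0.52 (SE) and -1.54 ± 0.52 (SE). Rxra, Rxrb, Rxrg, Rarg and Ppard were called in no region. Of the genes known to respond to retinoic acid, Tgm2 ranged from 15.0 to 109 and Nrip1 from 175 to 320.3 over all samples, and neither was called in a region.

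**Figure D5:**
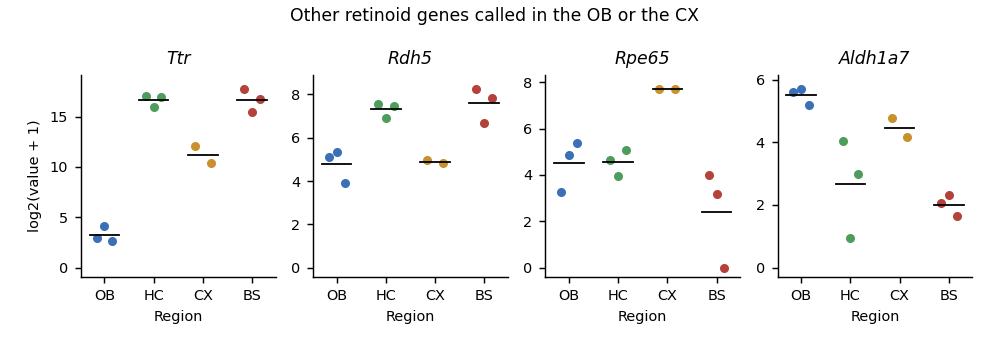
log2(value + 1) (y axis) of 4 other retinoid genes called in the OB or the CX, in each of the 11 samples by region (x axis); points are samples and horizontal lines are means. Ttr and Aldh1a7 separate the OB from the other regions in opposite directions, Rpe65 is highest in both CX samples, and Rdh5 is higher in the HC and BS than in the other regions.

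For the 3 tested members whose region means spanned at least 4-fold, the genes with the most similar pattern over the 11 samples were found by Pearson's r of log2(value + 1). For Cyp26b1 they were Kctd9 (r = 0.9501), Tmx1 (r = 0.948) and Lgi1 (r = 0.948), the last a secreted protein of synapses, with mean values of 1650.4 in the BS and 224 in the OB. For Aldh1a1 they were E030003E18Rik (r = 0.981), Extl1 (r = 0.971) and Wnt8b (r = 0.960), a Wnt ligand at a mean of 38.3 in the BS and 0 in the OB and CX. For Stra6 they were Matn2 (r = 0.971), Podn (r = 0.953) and Grb14 (r = 0.949). Matn2, an extracellular matrix protein that also served as an ensheathing glia marker here, had means of 12.7 in the CX, 109.6 in the OB, 142 for the HC and 146 for the BS. The 11 points share their regions and normalization, and these coefficients are a ranking of 13875 genes, given without p.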

How the data were processed

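RNA of FACS-sorted Aldh1l1-eGFP astrocytes was made into libraries with the NuGEN Trio kit and sequenced by the authors in 11 samples, whose groups are the dissected regions of the labels. Per the study's methods, the authors aligned reads to mm10 with STAR 2.5.0a, counted them on UCSC transcripts and normalized them with DESeq2 1.20.0. The deposited values are a normalized signal, counts divided by a size factor per sample, which the authors call RPM. Every non-zero value (100%) was a whole multiple of what 1 read is worth in its sample, within a tolerance of 0.05 reads, so the reads were recovered. Because the deposited unit is normalized, limma 3.58.1 (R 4.3.3) with a mean-variance trend was fitted to log2(value + 1), two-sided, after edgeR's filterByExpr on recovered reads, with fold changes on that scale, which understates low genes. Each region was set against the 3 others pooled, and pairs of regions came from a model with 1 mean per region. Calls follow the study's thresholds: unadjusted p under 0.01, a 1.5-fold change and 2 or more replicates with values above 5. All 9 members are named, with each listed gene called in a region against the others, except results not reported here, and the 3 nearest genes of members spanning 4-fold; other listed genes were chosen after their values were seen. The members and lists were chosen with earlier results of these data known.

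Levels between genes were compared per exon length of GENCODE M21 (GRCm38). Alternatives were edgeR 4.0.16 with TMM factors, DESeq2 1.42.0, no filter, a pseudocount of 0.25, adjusted p under 0.05, 1 mean per region, a replicate block and the omission of single samples. Python 3.11.15 with pandas 2.3.3, scipy 1.17.1 and matplotlib 3.10.9 was used for tables, exact tests and plots. Intervals and floors cover counting error only.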

Additional observations from a re-analysis of the deposited data

How the results depend on the processing

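Counts of members in a region against the others include Cyp26b1 as a description only. At an adjusted p under 0.05, members called were 0 for both OB and CX, and listed retinoid genes 1 for the OB and 0 for the CX and BS, where calls over all 13875 genes were 630 for the OB, 2 for the CX and 737 for the BS. With a mean for each region, 3 members were called for the CX, and 3 listed genes for the HC, 3 for the CX and 5 for the BS, where calls over all genes also increased, to 666 for the HC, 1071 for the CX and 1960 for the BS, from 178, 384 and 1253. In the CX, edgeR called 2 listed genes, DESeq2 called 3 and a pseudocount of 0.25 called 0, where calls over all genes were 296, 591 and 404. In the BS, DESeq2 called 3 and the pseudocount of 0.25 called 2, where calls over all genes were 1428 and 1214. With each sample left out in turn, members called ranged from 0 to 2 for the OB and from 1 to 2 for the HC against the CX, and listed genes from 1 to 4 for the OB, 0 to 2 for the CX and 0 to 4 for the BS. Dhrs3 was called in the OB without OB replicate 1 and not without replicate 2 or 3. Without HC replicate 2, Cyp26b1 and Stra6 were called for the HC against the CX. Leaving out a CX sample was added after seeing the data and assumes that the lone CX sample varies like the others.

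Directions turned for differences that were not called. Under edgeR and DESeq2, the log2 fold change of Cyp26b1 in the HC went from 0.37 to -2.84 and -2.90, that of Aldh1a2 in the BS from 0.04 to -0.32 and -0.29, that of Stra6 in the OB from 0.34 to -0.16 and -0.18, and that of Rarb in the OB from 0.21 to -0.0055 and -0.017. That of Aldh1a2 in the HC was 0.016 with edgeR. With samples left out, the values ranged from -0.51 to 1.205 for Cyp26b1, -0.57 to 0.052 for Aldh1a1 and -1.26 to 0.43 for Aldh1a2 in the HC, from -1.09 to 0.078 for Aldh1a2 and -0.80 to 0.93 for Rarb in the CX, and from -0.25 to 0.23 for Aldh1a2 and -0.14 to 0.21 for Rdh10 in the BS. The cause was not tested. The other values for single members, 286 of 308 with a sample left out and 179 of 196 under other settings, kept direction and side of the threshold.

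Whether the replicate numbers pair the samples could not be settled. Deviations of same-numbered samples correlated at -0.16 to 0.25 over 15 pairs, with a median of 0.023. Those of other samples correlated at -0.22 to 0.18 over 30 pairs, with a median of -0.0025. Of 11 samples, 7 correlated best with their own number. The main fits left the samples unpaired. With the replicate block, members called were 2 for the OB, 0 for the HC, 1 for the CX, 2 for the BS and 3 for the OB against the HC, and Rarb in the CX went from 0.067 to -0.083. Depth limits what can be seen of Crabp1 outside the OB, at 0 or 1 read per sample, and of Aldh1a3, at 0 to 8 reads.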
